A study of Mus musculus with 2 samples.

Results

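Among the smooth muscle cells (SMCs) of the mouse thoracic aorta, a small set held at least 2 of 6 transcripts that were rare in the remaining SMCs. An SMC was counted as a member if at least 2 of the genes *Nrn1*, *Mme*, *Angptl1*, *Mab21l2*, *Scin* and *Bcl11a* were detected in it, each by at least 1 unique molecular identifier (UMI, a tag that marks 1 captured mRNA molecule). This rule selected 77 of 2436 SMCs, 47 of 1429 in aorta 1 and 30 of 1007 in aorta 2, out of 15210 cells deposited in all. They are called members here, since the fibroblast character that their working name gives was borne out by some of the cells and some fibroblast genes only, as described under the comparison with fibroblasts, and no pair of the 6 genes was found in all of them.

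Medial SMCs keep the aortic wall contractile through actin, myosin and their regulators, and also make its elastic fibers, collagens and basement membrane. They arise from several embryonic sources, so that transcription factors of the heart fields, neural crest and somites mark SMCs of different stretches of the vessel. Fibroblasts of the adventitia, the outer layer, make decorin, lumican and fibrillar collagens and are defined by *Pdgfra*, while pericytes and SMCs of small vessels are known for the ATP-sensitive potassium channel subunits *Kcnj8* and *Abcc9* and for *Rgs5*.

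The data were 2 single-cell libraries, each from the thoracic aorta of a 12-week-old mouse of 1 group, designated GFPiSMC. These wild type C57BL/6J animals carried *Myh11-CreERT2* and the *mT/mG* reporter and were given tamoxifen intraperitoneally at 3 weeks of age, 1 mg daily over 5 days, so that cells with *Myh11* promoter activity at that time and their progeny exchanged tdTomato for eGFP. The transgene lies on the Y chromosome, so the animals were male, and since no second condition was measured, all comparisons are between cells of the same aortas. Aortas were digested in the cold, live singlets were sorted whatever their GFP, and 3′ mRNA tags were counted.

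The SMCs compared were those with 2000 to 25000 UMIs, over 200 genes and under 10% mitochondrial UMIs that held at least 5 UMIs of *Myh11*, *Cnn1* and *Lmod1* together and at least 5 of eGFP, with none of the endothelial genes *Pecam1* and *Cdh5*, the leukocyte gene *Ptprc* or *Pdgfra*. By construction every member was therefore GFP-marked. Members held 8411 and 7751 eGFP CPM (the UMIs of a gene in the summed cells of a group per 1000000 of their UMIs) in the 2 aortas, against 6839 and 6611 CPM in the other SMCs. tdTomato was found in 4 of 47 (8.51%) and 2 of 30 (6.67%) members, in 7.31% and 5.42% of the other SMCs and in 74.0% and 61.5% of fibroblasts.

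Members were shallower cells. Their median was 5667 UMIs in aorta 1 and 6920 in aorta 2, while that of the other SMCs was 8476 and 8007. In aorta 1, 32 of the 47 members lay between 5000 and 8000 UMIs and made up 8.99% of the SMCs in that range (exact 95% binomial interval 6.23% to 12.5%), against 0.366% of those between 8000 and 12000 (0.0443% to 1.31%). In aorta 2 the corresponding shares were 3.69% (1.86% to 6.51%) and 2.29% (1.05% to 4.30%), with intervals that overlapped. Below 5000 UMIs the shares were 3.62% (1.82% to 6.38%) in aorta 1 and 3.85% (1.67% to 7.44%) in aorta 2. From 12000 UMIs they were 0.901% (0.109% to 3.22%) and 1.85% (0.225% to 6.53%). The share in aorta 1 thus did not rise steadily as depth fell. None of the 77 members was marked as a doublet, a number too small to compare with the 1.45% and 0.716% marked among the other SMCs, and none carried 1 of the 18 barcodes shared by the 2 libraries. Over all depths, members made up 3.29% of SMCs (2.43% to 4.35%) in the first aorta and 2.98% (2.02% to 4.23%) in the second. These intervals cover counting error only.

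The 6 selecting genes have unrelated products. *Nrn1* (chr13:36725361-36735131 in the GRCm38 build, overlapping *Fars2* on the other strand) encodes neuritin, a small surface protein that promotes neurite growth, and *Mme* (chr3:63241537-63386030) encodes neprilysin, a membrane peptidase that cleaves vasoactive peptides. *Angptl1* (chr1:156838562-156861078) encodes a secreted angiopoietin-like protein, and *Scin* (chr12:40059769-40134228) encodes scinderin, which severs actin filaments. *Mab21l2* (chr3:86545581-86548629, overlapping *Lrba* on the other strand) belongs to a family of developmental regulators, and *Bcl11a* (chr11:24078056-24174123) encodes a zinc finger transcription factor. Their levels chose the cells and are given as a description.

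*Nrn1* was detected in 30 of 47 members of aorta 1 and 19 of 30 of aorta 2, at 464 and 278 CPM, against 3.88 and 2.71 CPM in the other SMCs. The aortas differed more in the next pair. *Mme* was found in 15 of 47 and 18 of 30 members, at 81.3 and 269 CPM. *Scin* went the other way, with 32 of 47 and 9 of 30 members and 163 and 55.6 CPM. *Angptl1* was detected in 23.4% and 53.3% of members, *Mab21l2* in 44.7% and 63.3%, and *Bcl11a* in 27.7% and 26.7%. Each of the 6 was present in at most 1.95% of the other SMCs of either aorta.

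**Figure D1:**
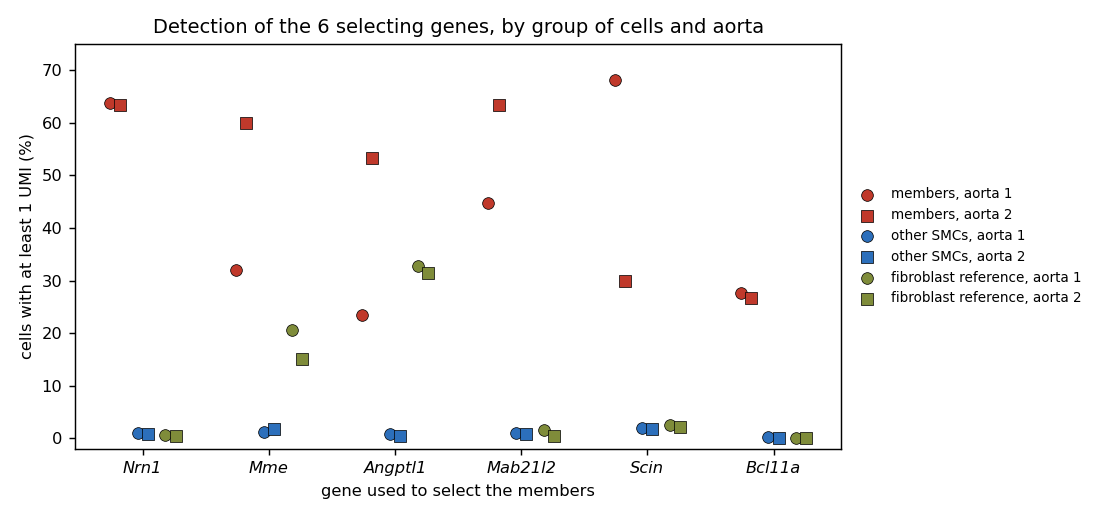
Share of cells (%) with at least 1 UMI of each of the 6 genes that selected the members, in members, in other SMCs and in *Pdgfra*-positive fibroblasts of aorta 1 (circles) and aorta 2 (squares). *Mme* and *Angptl1* were also found in fibroblasts, in 20.6% and 32.9% of those of aorta 1, whereas the other 4 genes were near 0 there.

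*Angptl1* and *Mme* were also expressed by fibroblasts of the same libraries, defined as cells with *Pdgfra* and without the genes of other classes (630 cells in aorta 1 and 538 in aorta 2). *Angptl1* stood at 178 and 156 CPM in these fibroblasts and *Mme* at 54.3 and 37.5 CPM. *Nrn1*, *Mab21l2* and *Scin* were at 0.901 to 5.38 CPM there, and *Bcl11a* had no UMI. Leukocytes held *Bcl11a* at 16.2 and 21.7 CPM and endothelial cells held *Nrn1* at 13.5 and 4.67 CPM, both below the level in members.

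Because every gene helped to choose the cells, it was also read in cells chosen by the other 5 alone. With *Nrn1* left out of the rule, *Nrn1* was at 420 and 310 CPM in members and at 7.46 and 3.84 CPM in the rest (log2 fold change 5.71 ± 0.29, SE). For *Mab21l2* the corresponding difference was 5.60 ± 0.40, for *Mme* 5.35 ± 0.56, for *Angptl1* 4.84 ± 0.60, for *Bcl11a* 4.37 ± 0.65 and for *Scin* 3.94 ± 0.54. Each transcript was higher in the cells that the other 5 chose. Their list was put together from these same libraries, so these values only describe how they occurred together and are no independent evidence of it.

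Most members held only a few of the 6. Exactly 2 genes were detected in 24 members of aorta 1 and 15 of aorta 2, 3 genes in 20 and 6, and all 6 in 1 cell of each aorta. Outside the rule stood 86 and 56 SMCs with 1 gene and 1296 and 921 with none. The most frequent combination in aorta 1 was *Nrn1*, *Mab21l2* and *Scin* (8 cells), followed by *Nrn1* with *Scin* (7 cells), while in aorta 2 no combination was seen in more than 2 cells.

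All other genes were compared between members and the other SMCs by edgeR's quasi-likelihood test on UMIs summed per aorta and group (2 sums against 2). The sums of members held 295103 and 215837 UMIs, so that 1 UMI was worth 3.39 and 4.63 CPM there, against 0.0863 and 0.129 CPM in the other SMCs. Of 11408 genes tested, not counting the genes that chose the cells, 316 (2.77%) were higher in members and 425 (3.73%) were lower at an adjusted p under 0.05. The direction was the same in both aortas for 315 and 425 of these. Scaling by library size alone, without the TMM factors, moved the median log2 difference of all genes from -0.05 to 0.16 and gave 507 higher and 255 lower, so that 66.5% of calls were higher rather than 42.6%. The p-values compare the difference with the spread between 2 aortas in cells whose selecting genes were proposed from these cells, and are no independent evidence that such a cell type exists.

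**Figure D2:**
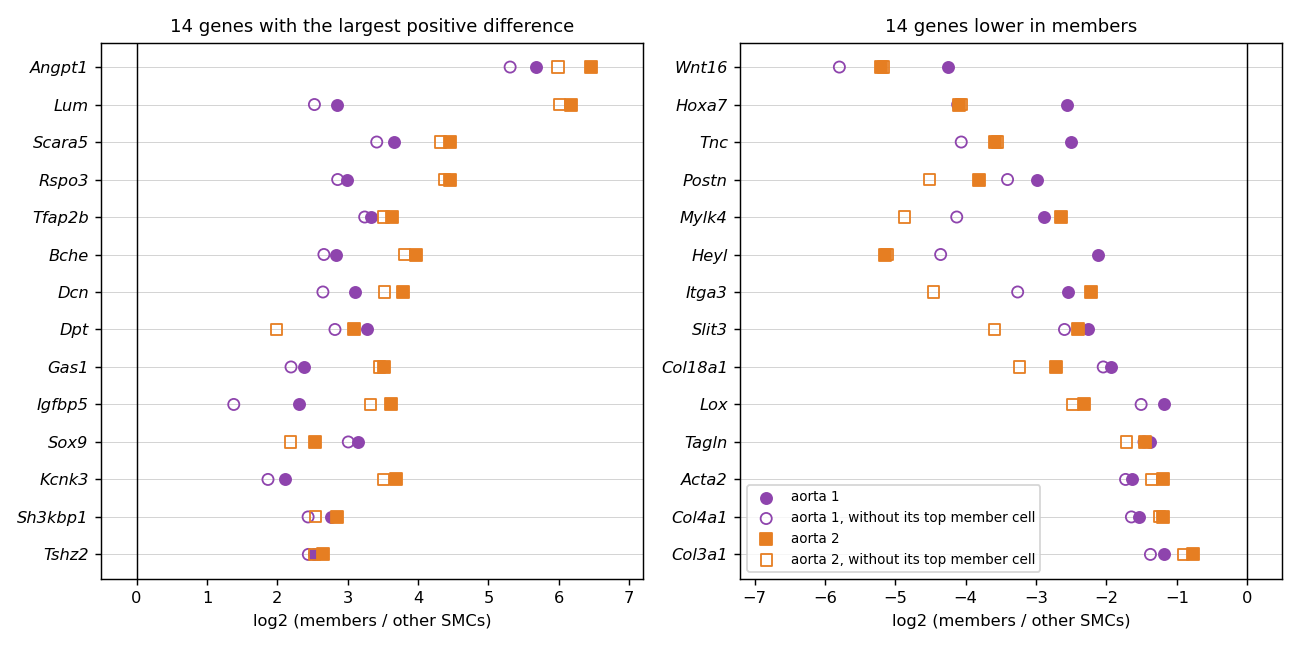
Log2 ratio of members to other SMCs within aorta 1 (circles) and aorta 2 (squares) for the 14 called genes with the largest positive difference among those with at least 20 UMIs in the members of each aorta, and for 14 of the named genes that were lower. Open symbols leave out, in each aorta, the member cell with the most UMIs of that gene. All ratios on the left stay above 1 and all on the right below -0.5 on the log2 scale, open symbols included.

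*Angpt1*, the ligand of the endothelial receptor Tie2, was counted 20 and 43 times in members, or 68 and 199 CPM, against 1.12 and 1.93 CPM in the other SMCs (log2 fold change 6.19 ± 0.49, adjusted p 1.2e-06). *Rspo3*, a secreted enhancer of Wnt signaling, stood at 173 and 519 CPM against 18.9 and 20.6 CPM (3.84 ± 0.32, adjusted p 1.7e-06). *Grem1*, a secreted antagonist of bone morphogenetic proteins, was at 54.2 and 246 CPM against 4.23 and 3.35 CPM (4.94 ± 0.50). Every member value exceeded every value of the other SMCs for these 3 genes, and aorta 2 was the higher in each. *Grem1* was uneven among cells: it was detected in 5 of 47 members of aorta 1, where 1 cell held 9 of its 16 UMIs, and in 16 of 30 of aorta 2. *Angpt1*, *Rspo3* and *Grem1* were at 16.6, 6.40 and 1.28 CPM in the fibroblasts of aorta 1.

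Of the 6 tested genes of the angiopoietin and angiopoietin-like family other than *Angptl1*, 3 were higher and none lower (median log2 difference 0.86, against -0.05 over all genes). Beside *Angpt1* these were *Angptl4*, an inhibitor of lipoprotein lipase, at 47.4 and 69.5 against 8.71 and 6.05 CPM (2.70 ± 0.41), and *Angpt2*, a context-dependent ligand of Tie2, at 71.2 and 181 against 49.3 and 48.7 CPM (1.06 ± 0.28, adjusted p 0.032). *Angpt2* lost its call against SMCs of the same UMI totals (adjusted p 0.34) and under DESeq2 (0.20), and its difference in aorta 1 was 0.34 on the log2 scale and -0.29 without the member cell with most of its UMIs.

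Transcription factors shifted in both directions. *Tfap2b*, an AP-2 factor known from neural crest and from the arterial duct, rose from 14.6 and 18.7 CPM in the other SMCs to 169 and 264 CPM in members (3.47 ± 0.24, adjusted p 3.8e-07). It was detected in 26 of 47 and 19 of 30 members, against 8.54% and 8.60% of the other SMCs, and at no more than 2.05 CPM in fibroblasts, endothelial cells and leukocytes. *Sox9*, the master regulator of cartilage, stood at 241 and 130 CPM against 23.5 and 19.7 CPM (2.93 ± 0.25, adjusted p 2.4e-06). Both factors kept the difference when the cell with the most UMIs was left out of each aorta, with log2 ratios of 3.24 and 3.50 for *Tfap2b* and 3.01 and 2.19 for *Sox9* in the 2 aortas.

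*Hand2*, a factor of the heart fields and of SMCs near the heart, was not detected in members. It had no UMI in either sum of members, against 531 and 251 UMIs, or 45.8 and 32.3 CPM, in the other SMCs. Set against a floor of 3 UMIs per library it was at least 2.33-fold lower (adjusted p 0.0030). A *Hand2* UMI was present in 0 of 47 and 0 of 30 members, which allows shares of cells with a UMI of up to 6.38% and 10% at their own depth. The other SMCs, which were deeper, had one in 23.2% and 17.8% of cells, and in 7.24% and 6.24% after each cell was thinned to 2000 UMIs. No thinned member had one either, and since the limits lie below the thinned share in aorta 1 and above it in aorta 2, the shares of cells were not told apart in both aortas at that depth. Against SMCs of the same UMI totals the summed difference passed (adjusted p 0.0062). With the rule applied to thinned cells, which left 22 and 16 members, it did not (adjusted p 0.18).

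Of 28 tested regional and lineage transcription factors, 6 were higher in members and 4 lower (median -0.39), and against SMCs of the same UMI totals 3 were higher and 2 lower. The higher ones, beside *Tfap2b*, were *Msx1* (1.98), *Foxf1* (1.58), *Prrx1* (1.53), *Nr2f2* (1.19) and *Osr1* (0.54), most of which are known from mesenchyme and limb or gut wall. *Prrx1*, for example, was at 291 and 361 CPM against 91.8 and 102 CPM. The lower ones, beside *Hand2*, were the Notch targets *Heyl* and *Hey2* and the factor *Tbx18* (-1.55). *Heyl* was at 23.7 and 0 CPM against 95.3 and 71.4 CPM (-2.82 ± 0.53), and *Hey2* at 13.6 and 0 against 35.3 in either aorta (-2.38 ± 0.57), a call that was lost against SMCs of the same UMI totals (adjusted p 0.095). These were also the 2 genes called among 8 tested of the Notch pathway.

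Of 14 tested Hox genes, which record position along the body axis, 5 were higher in members and 1 was lower, with a median of 1.22. Against SMCs of the same UMI totals 3 were higher and 0 lower, and under DESeq2 6 were higher and 0 lower. No difference between paralog groups was tested. The higher ones belonged to paralog groups 2 to 5, of which *Hoxa3*, *Hoxb2*, *Hoxb3* and *Hoxd4* did not pass. *Hoxa4* was at 64.4 and 144 CPM against 9.75 and 15.2 CPM (2.81 ± 0.38), *Hoxb4* at 94.9 and 102 against 20.3 and 27.2 CPM (1.86 ± 0.28), and *Hoxa2*, *Hoxb5* and *Hoxa5* were higher by 2.0, 1.81 and 1.73. The lower one, *Hoxa7*, had 1 UMI in members against 300 and 267 in the other SMCs, a ratio of 15 (95% counting interval 2.68 to 592), and did not pass under DESeq2 (adjusted p 0.055). *Hoxb7* had no UMI in members against 126 and 133 UMIs, and did not pass the test (adjusted p 0.066, and 0.011 with the aorta as a block). *Hoxa2* did not pass against SMCs of the same UMI totals (adjusted p 0.12).

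These values set members beside the other groups of SMCs that such factors mark. *Hand2* or *Tbx20* was detected in 2 of 47 and 0 of 30 members, and *Hoxa7*, *Hoxb7* or *Hoxc6* in 1 of 47 and 0 of 30, against 26.9% and 20.2%, and 16.6% and 21.1%, of the other SMCs. *Dlx6* or *Msx2* was found in 14.9% and 16.7% of members and 13.5% and 15.9% of the other SMCs. All these shares were taken at the cells' own depth, which was lower in members, and were not read after thinning. *Cdkn1a*, *Mdm2* and *Gdf15* occurred together in 0 of 47 and 0 of 30 members and in 1.16% and 0.512% of the other SMCs, a difference that 77 cells cannot resolve.

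The contractile program was lower in part. Of 16 tested SMC genes outside the rule, 9 were lower in members and none was higher (median -0.51). With library size alone, and likewise against SMCs of the same UMI totals, 6 were lower and 1 was higher, and with the aorta as a block 9 were lower and 1 was higher. *Acta2*, smooth muscle actin, was at 8448 and 11226 CPM in members against 22580 and 22353 CPM (-1.40 ± 0.15, adjusted p 2.8e-05), and *Tagln*, an actin-bundling protein, was at 5486 and 4976 against 12341 and 11871 CPM (-1.42 ± 0.14). *Ppp1r14a*, the inhibitor of myosin phosphatase, was at 495 and 681 against 1122 and 1038 CPM (-1.10 ± 0.15). *Itga8*, *Tpm1*, *Tpm2*, *Myl9* and *Smtn* were lower by between 0.48 and 1.01 on the log2 scale.

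*Mylk4*, a kinase of the myosin light chain kinase family, differed most in this list. It had 8 and 7 UMIs in members, or 27.1 and 32.4 CPM, against 183 and 190 CPM (-2.87 ± 0.25, adjusted p 2.1e-06). These UMIs came from 2 of 47 and 2 of 30 members, while 48.6% and 47.9% of the other SMCs had at least 1. Some contractile genes did not pass: *Mylk*, the main myosin light chain kinase (1149 and 1825 against 1217 and 1215 CPM, 0.07), *Cald1* (-0.25) and *Myocd*, the coactivator of the contractile program (81.3 and 83.4 against 66.9 and 69.6 CPM, 0.06). *Actg2*, the enteric smooth muscle actin, was at 685 and 1103 against 508 and 558 CPM (0.52 ± 0.17, adjusted p 0.091). It was the 1 gene higher under those alternatives (adjusted p 0.015, 0.032 and 0.013), but not under DESeq2 (0.38). *Myh11*, used by the gate, was at 2938 and 4531 CPM against 4851 and 4424 CPM. The summed level of the 16 genes was 30654 and 38010 CPM in members, 59189 and 58503 CPM in the other SMCs, and 1396 and 1284 CPM in fibroblasts.

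**Figure D3:**
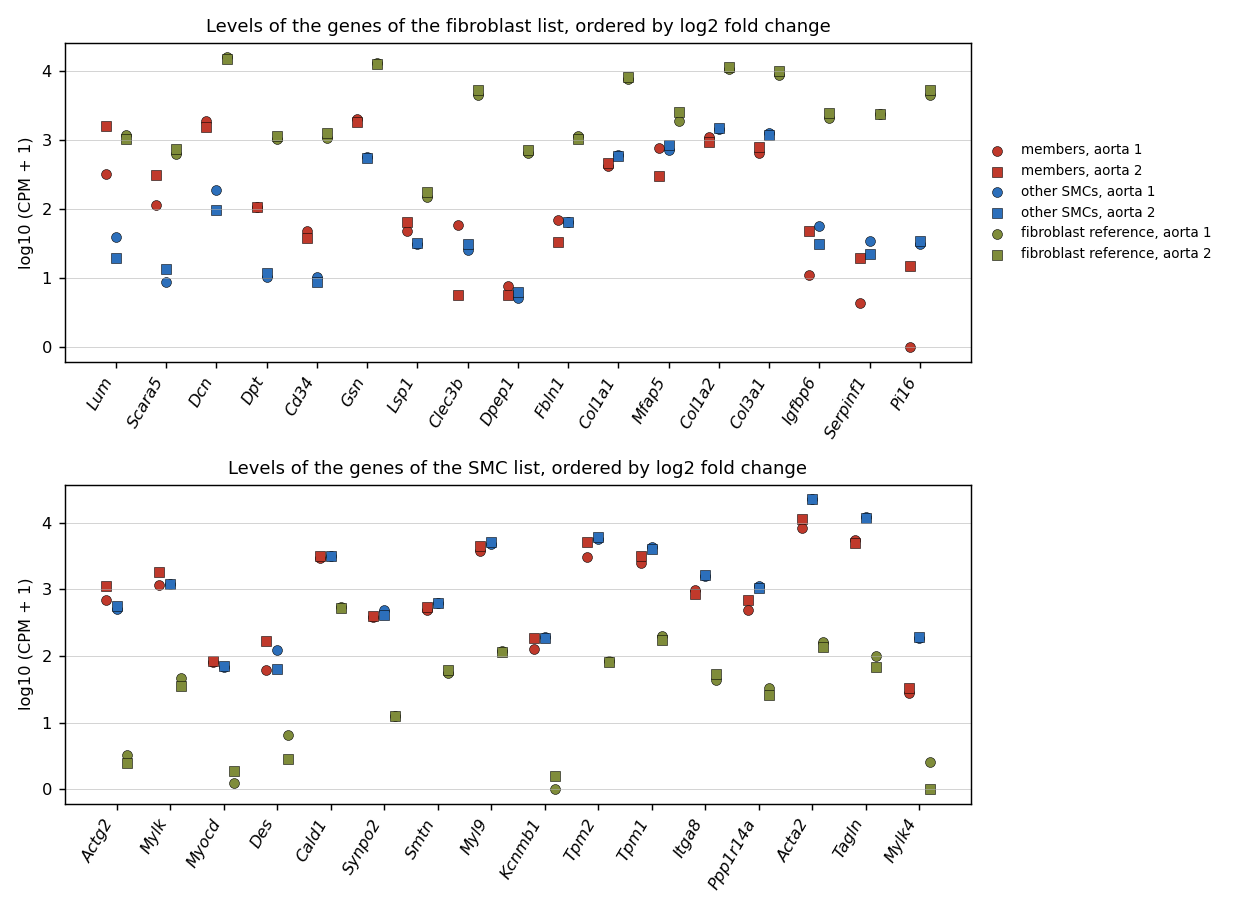
Levels, as log10 of CPM + 1, of the 17 fibroblast genes (top) and 16 SMC genes (bottom) that the gate did not use, in members, other SMCs and fibroblasts of aorta 1 (circles) and aorta 2 (squares). *Lum*, *Scara5*, *Dcn*, *Dpt*, *Cd34* and *Gsn* lie above the other SMCs and the collagens below, and all SMC genes of members lie above fibroblasts.

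Fibroblast genes were mixed. Of the 17 tested, 6 were higher in members (*Lum*, *Scara5*, *Dcn*, *Dpt*, *Cd34* and *Gsn*) and 4 were lower (*Pi16*, *Col3a1*, *Col1a2* and *Col1a1*), with a median of 0.11. *Lum*, which encodes lumican, a collagen-binding proteoglycan, was at 319 and 1561 CPM in members against 38.3 and 18.7 CPM (4.73 ± 0.47, adjusted p 9.2e-06). *Dcn*, which encodes decorin, was at 1871 and 1538 CPM against 188 and 97.0 CPM (3.36 ± 0.24). *Scara5*, a scavenger receptor, was at 112 and 310 against 7.68 and 12.4 CPM (4.14 ± 0.38), *Dpt*, which encodes dermatopontin, at 105 and 107 against 9.49 and 11.1 CPM (3.16 ± 0.28), and *Gsn*, which encodes gelsolin, at 2013 and 1816 against 568 and 549 CPM (1.57 ± 0.13). As sums, all 5 exceeded the other SMCs in both aortas.

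In fibroblasts the same genes stood at other levels. *Dcn* was at 15640 and 14628 CPM, *Gsn* at 12737 and 12287, and *Dpt* at 1030 and 1149 CPM, all well above members, whereas *Lum*, at 1156 and 1013 CPM, lay between the values of the 2 sums of members. *Pi16*, a marker of adventitial fibroblasts, was at 4454 and 5301 CPM in fibroblasts but had 0 and 3 UMIs in members. *Clec3b* had 17 UMIs and 1 UMI. The proportions to *Dcn* were alike for some genes and apart for others. Against each 100 *Dcn* UMIs, *Dpt* was at 5.62 and 6.93 UMIs in members and 6.59 and 7.86 in fibroblasts, and *Gsn* at 108 and 118 against 81.4 and 84.0. For each 100 *Dcn* UMIs, fibroblasts held 7.39 and 6.92 of *Lum*, members 17.0 and 102, and the other SMCs 20.3 and 19.3. For each 100 *Dcn* UMIs fibroblasts held 28.5 and 36.2 of *Pi16*, and members 0 and 0.904. Endothelial cells, a type that should lack both transcripts, held *Dcn* at 668 and 622 CPM and *Lum* at 61.5 and 42.6 CPM, below the sums of members and above the other SMCs. Without the 5 members with the most *Dcn* UMIs in each aorta, the remaining members held it at 110 and 448 CPM, below endothelial cells. Without the 5 with the most *Lum* UMIs, the remaining members held *Lum* at 105 and 838 CPM, above endothelial cells. The 17 genes together summed to 7594 and 8034 CPM in members, 5057 and 4971 CPM in the other SMCs and 76247 and 80133 CPM in fibroblasts, and the part that fibroblast RNA had in these differences was not tested. *Pdgfra* was at 0 by the gate, and without that condition members numbered 62 and 33.

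Decorin and lumican were not spread over all members. In aorta 1, 5 cells held 524 of 552 *Dcn* UMIs, or 94.9%, 1 of them held 165, and 25 of 47 members had none. In aorta 2, 5 cells held 254 of 332 *Dcn* UMIs and 15 of 30 had none. *Lum* was carried more widely in aorta 2, where 13 of 30 members had at least 10 UMIs, than in aorta 1, where 4 of 47 did. Outside these 5 cells, a limit chosen after the values were seen, the other 42 members of aorta 1 held *Dcn* at 110 CPM, below the 188 CPM of the other SMCs taken whole, and the other 25 of aorta 2 at 448 CPM, above their 97.0 CPM. The higher sum of *Dcn* in aorta 1 thus came from 5 cells. Without the top cell of each aorta the ratios of *Lum* were 2.53 and 6.01 on the log2 scale. *Gsn* was found in 43 of 47 and all 30 members. *Dpt* was less widespread. In aorta 1 it was detected in 3 of 24 members with 2 selecting genes and 5 of 23 with 3 or more. In aorta 2 it was detected in 2 of 15 and 4 of 15. For *Scara5* the corresponding numbers were 7 of 24 and 7 of 23 in aorta 1, and 7 of 15 and 14 of 15 in aorta 2.

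Summed levels of fibroblast genes were higher in the members with *Mme*, a split made after the values were seen and given with no test. In aorta 1, 15 members with *Mme* held *Dcn* at 4340 CPM and *Scara5* at 215 CPM, and the 32 without it held 149 and 40.2 CPM. The shares of cells with a *Dcn* UMI did not follow this, at 7 of 15 with *Mme* and 15 of 32 without in aorta 1, and 9 of 18 and 6 of 12 in aorta 2. In aorta 2, *Lum* was at 2410 CPM in 18 members with *Mme* and at 458 CPM in 12 without. *Sox9* went the other way, at 107 against 333 CPM in aorta 1 and 98.4 against 171 CPM in aorta 2. Members with *Scin* in aorta 1 held *Sox9* at 344 CPM, against 64.2 CPM in those without, while in aorta 2 the levels were 181 and 110 CPM, from 11 and 17 UMIs. Both genes had chosen the cells, so the splits by *Mme* and by *Scin* were not independent. In aorta 1 *Scin* was detected in 26 of 32 members without *Mme* and 6 of 15 with it. In aorta 2 these numbers were 3 of 12 and 6 of 18. *Tfap2b*, *Tshz2* and *Abcc9* were found on both sides of the *Mme* split, for example *Tshz2* at 297 and 414 CPM in aorta 1. *Hand2*, which had no UMI in any member, was necessarily at 0 on both.

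**Figure D4:**
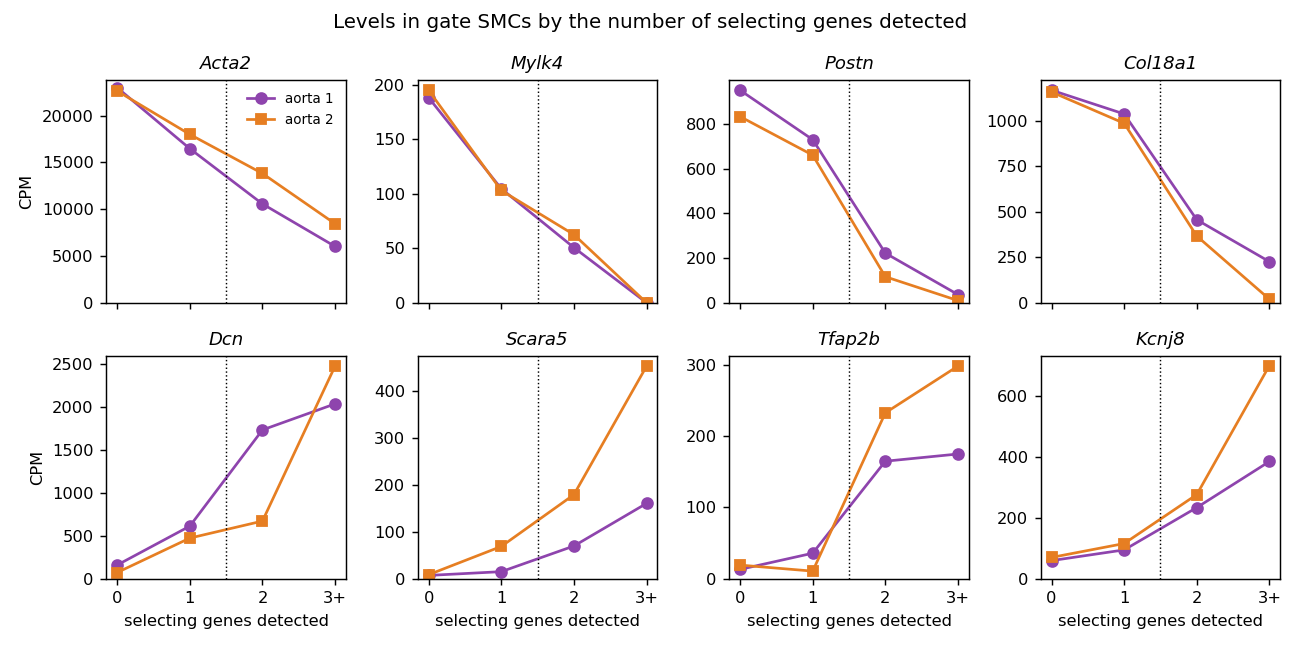
CPM of 8 genes in SMCs of the gate with 0, 1, 2 and 3 or more of the 6 selecting genes detected, in aorta 1 (circles) and aorta 2 (squares). The dotted line marks the threshold of the rule. *Acta2*, *Mylk4*, *Postn* and *Col18a1* fall toward the right in both aortas, *Dcn*, *Scara5* and *Kcnj8* rise, and *Tfap2b* rises from 1 gene to 3 or more.

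Summed levels of cells just inside and just outside the rule were graded in some genes. Such sums do not tell whether single cells were graded. *Mylk4* was at 188 and 195 CPM in SMCs with none of the 6 genes, 105 and 103 CPM with 1 gene, 50.7 and 62.6 CPM with 2, and 0 in cells with 3 or more. Its level with 2 genes came from 2 of 24 and 2 of 15 cells. *Postn* followed the same order, from 950 and 832 CPM through 729 and 660, 222 and 116 to 36.4 and 9.61 CPM. *Scara5* rose across the same groups from 7.18 and 8.77 through 15.2 and 68.8, 69.7 and 179 to 160 and 452 CPM. In these 3 genes SMCs with 1 detected gene lay between those with none and the members, but not in every gene. *Tfap2b* in aorta 2 was at 19.2 CPM with none of the 6 genes, 10.7 with 1 and 233 with 2, and *Hand2* in aorta 2 was at 31.7, 43.0 and 0 CPM. *Grem1* in aorta 1 was at 4.42, 1.38 and 76 CPM. A rule at 3 genes kept 23 and 15 members. These levels are a description of the cells around the threshold.

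Of 21 tested proteoglycan and matricellular genes, 3 were higher (*Lum*, *Dcn* and *Vcan*) and 8 were lower (median -0.67). *Postn*, which encodes periostin, was at 136 and 64.9 CPM against 936 and 822 CPM (-3.28 ± 0.22, adjusted p 3.6e-07), and was detected in 8 of 47 and 7 of 30 members. *Tnc*, which encodes tenascin-C, had 1 UMI in members against 287 and 186, a ratio of 12.5 (95% counting interval 2.23 to 494), a call that was lost under DESeq2 (adjusted p 0.083). *Ccn1*, *Ccn5*, *Ccn3*, *Ogn*, *Ccn2* and *Bgn* were lower by 2.28, 2.22, 2.02, 1.79, 1.42 and 0.67. The summed level of the 23 genes of this list was 17113 and 15567 CPM in members and 14882 and 15196 CPM in the other SMCs. *Vcan*, the large proteoglycan versican, was at 495 and 737 against 163 and 188 CPM (1.58 ± 0.16).

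Among fibrillar collagens and their processing enzymes, 1 of 19 tested genes was higher (*Col6a1*) and 7 were lower (median -0.74). Against SMCs of the same UMI totals 0 were higher and 6 were lower. *Lox*, the lysyl oxidase that cross-links collagen and elastin, was at 74.6 and 32.4 CPM against 149 and 150 CPM (-1.61 ± 0.25), *Col5a2* at 115 and 120 against 262 and 266 CPM (-1.37 ± 0.17), and *Col3a1* at 637 and 797 against 1245 and 1181 CPM (-0.98 ± 0.14). Members thus had less of the main fibrillar collagens than the other SMCs. Elastic fiber genes gave 2 higher and 3 lower of 14 (median -0.13), with 3 higher and 2 lower by library size alone and 2 higher and 1 lower under DESeq2. *Eln* was at 2125 and 1038 against 3176 and 3089 CPM (-1.18 ± 0.22), though not under DESeq2 (adjusted p 0.089), while *Efemp1*, which encodes fibulin-3, was at 50.8 and 83.4 against 13.0 and 9.02 CPM (2.31 ± 0.39).

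Basement membrane genes gave 3 higher and 8 lower of 20 tested (median -0.43), 4 and 5 under DESeq2, and 4 and 6 with library size alone. Against SMCs of the same UMI totals 2 were higher and 7 were lower. *Col18a1*, the source of endostatin, was at 349 and 199 CPM against 1161 and 1148 CPM (-2.24 ± 0.19, adjusted p 1.7e-06), and *Col4a1* at 390 and 445 against 976 and 892 CPM (-1.38 ± 0.15). *Lama2*, which encodes the laminin α2 chain, went the other way, at 197 and 181 against 53.7 and 53.1 CPM (1.62 ± 0.17), as did *Col4a6* (1.11 ± 0.13) and *Col4a5* (0.57 ± 0.13). The pair of neighboring type IV chains *Col4a5* and *Col4a6* was therefore higher in the cells in which *Col4a1* and *Col4a2* were lower.

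Integrins, the receptors that tie SMCs to this matrix, were lower in 9 of 13 tested and higher in none (median -1.01), and 7 were lower and 1 was higher with library size alone. The largest differences were those of *Itga3*, at 6.78 and 9.27 CPM against 42.7 and 46.9 CPM (-2.72 ± 0.47), *Itga5*, at 30.5 and 41.7 against 111 and 98.3 CPM (-1.78 ± 0.28), and *Itga9*, at 190 and 116 against 367 and 368 CPM (-1.43 ± 0.18). *Itgb1*, the common β chain, was lower by 0.60. *Itgb3* lost its call against SMCs of the same UMI totals (adjusted p 0.15) and under DESeq2 (0.064).

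**Figure D5:**
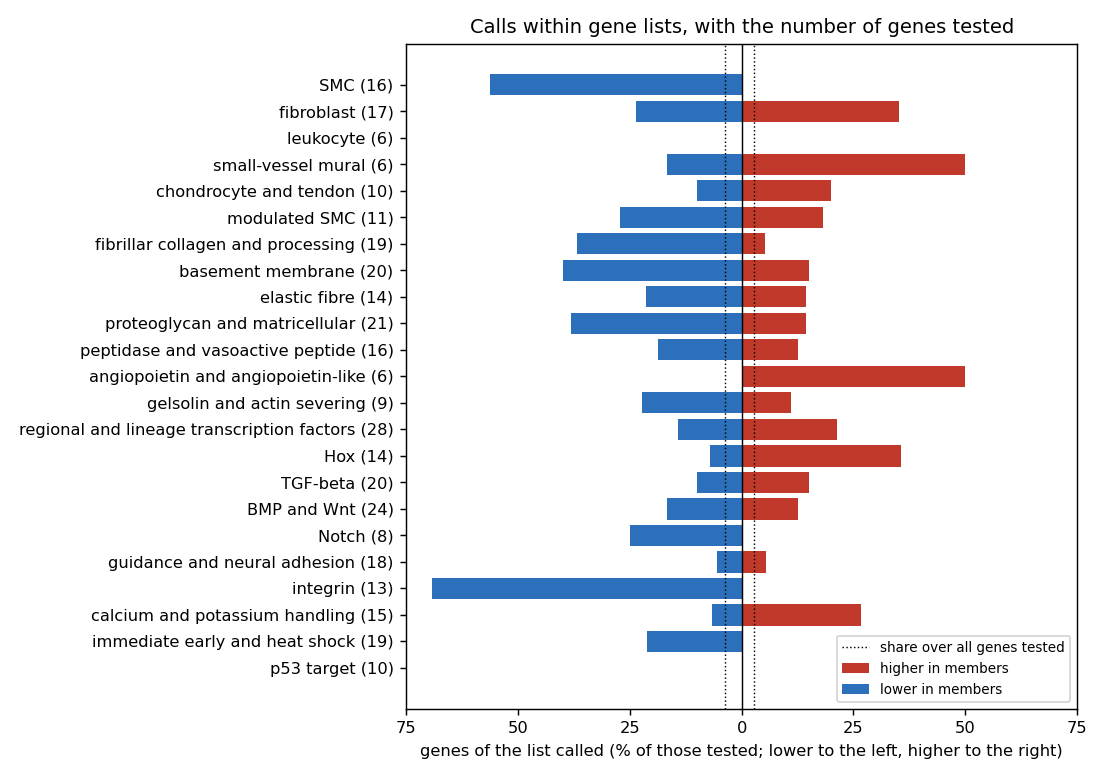
Share of the tested genes of each list that was called higher (to the right) or lower (to the left) in members, for lists with more than 5 genes tested, whose number is in parentheses. Dotted lines mark the shares over all genes, 2.77% higher and 3.73% lower. Integrin and SMC genes were called lower only, which held for all but 1 gene of each with library size alone, and angiopoietin-family genes higher only.

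*Kcnj8*, *Abcc9* and *Kcnk3*, which encode potassium channel subunits, were higher. *Kcnj8* was at 305 and 482 CPM in members against 62.0 and 73.0 CPM (2.30 ± 0.18, adjusted p 1.2e-06), its regulatory subunit *Abcc9* at 410 and 486 against 115 and 124 CPM (1.69 ± 0.14), and *Kcnk3*, a 2-pore acid-sensitive channel, at 98.3 and 246 against 19.9 and 16.7 CPM (2.92 ± 0.31). *Kcnj8* was detected in 63.8% and 86.7% of members and in 26.4% and 31.9% of the other SMCs. Of 15 tested calcium and potassium handling genes, 4 were higher (these and *Kcnma1*) and 1, *Kcnab1*, lower (-1.59 ± 0.25), with a median of 0.15.

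Other markers of small-vessel mural cells did not all move along. *Rgs5* was at 1725 and 3030 CPM against 870 and 817 CPM (1.27 ± 0.19), but *Cspg4* was lower (-0.64 ± 0.16, and adjusted p 0.14 with library size alone), *Kcna5* and *Vtn* had no UMI in members, and *Higd1b* had 3 and 0. In all 3 of 6 tested genes of this list were higher and 1 was lower.

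Endothelial, leukocyte and mesothelial markers stood low. The 8 endothelial genes not used by the gate summed to 20.3 and 9.27 CPM in members, with 5 and 6 of them at 0, against 6799 and 6884 CPM in endothelial cells. The 9 leukocyte genes summed to 139 and 41.7 CPM, against 31067 and 36409 CPM in leukocytes. In aorta 1, 98.3 CPM of this was *Cd74*, and neither *Cd74* (1.23, adjusted p 0.18) nor *Lyz2* (-1.46, 0.39) passed the test, although both did so with the aorta as a block (adjusted p 0.029 and 0.032). The 8 mesothelial genes had 1 UMI in each aorta, of *Upk3b*. Of 7 Schwann cell and neural genes, *S100b* was higher with 4 and 5 UMIs (4.17 ± 0.77), most of them in 1 cell of each aorta, and *Sox10* was at 0. The list summed to 820 and 899 CPM in members and 566 and 637 CPM in the other SMCs, nearly all of it *Ncam1*, which did not pass (800 and 876 against 563 and 633 CPM, 0.27, adjusted p 0.28, and 0.039 with library size alone). None of 2 tested endothelial, 6 leukocyte, 3 mesothelial, 3 cardiomyocyte or 4 erythroid genes was called by edgeR or DESeq2 over all cells. *Cd74* passed with doublets removed (adjusted p 0.031), *Hbb-bs* against SMCs of the same UMI totals (0.049) and after thinning (1.2e-08), and *Hba-a2* after thinning (0.0058), the last pair lower in members. At an unadjusted p under 0.05, 1 leukocyte gene was higher and 1 mesothelial, 1 cardiomyocyte and 1 erythroid gene were lower. With the aorta as a block all 4 erythroid genes were lower, at 44.1 and 64.9 CPM in sum against 501 and 86.2 CPM.

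The cartilage and tendon list gave no common direction. Beside *Sox9*, *Ibsp*, a bone matrix protein, was called higher of 10 tested genes, but 24 of its 34 UMIs came from 1 cell of aorta 1. *Scx*, the tendon factor, was lower (44.1 and 46.3 against 77.2 and 95.6 CPM, -1.14 ± 0.28). It was not called against SMCs of the same UMI totals (adjusted p 0.56), nor with library size alone. *Acan* and *Comp* had 5 UMIs and 1 UMI in members and did not pass (adjusted p 0.12 and 0.23, and for *Acan* 0.012 with the aorta as a block), and *Col2a1*, *Fmod*, *Hapln1* and *Tnmd* had none. Genes that mark SMCs modulated in disease gave 2 higher (*Lum* and *Dcn*) and 3 lower (*Tnc*, *Timp1* and *Fn1*) of 11. Under DESeq2, and likewise against SMCs of the same UMI totals, 1 was lower, and *Timp1* did not pass under DESeq2 (adjusted p 0.10).

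Of secreted Wnt and bone morphogenetic protein regulators, 3 of 24 tested genes were higher (*Grem1*, *Rspo3* and *Chrdl1*, another antagonist of bone morphogenetic proteins, 3.28 ± 0.40) and 4 were lower (*Wnt16*, *Sfrp2*, *Dkk3* and *Wif1*), while 5 were higher with the aorta as a block and 6 with library size alone. *Wnt16* had 1 UMI in members against 963 and 574 UMIs in the other SMCs, where 36.0% and 30.8% of cells held it, a ratio of 40.6 (95% counting interval 7.27 to 1604). In the TGF-β list 3 of 20 were higher and 2 lower (median -0.01), with 5 higher and 2 lower under library size alone and 1 higher and 2 lower against SMCs of the same UMI totals. The ligand *Tgfb2* was at 37.3 and 13.9 against 118 and 99.8 CPM (-2.20 ± 0.33), *Nrep* at 146 and 144 against 40.0 and 32.7 CPM (1.77 ± 0.22), and the transducer *Smad3* at 37.3 and 13.9 against 6.73 and 6.05 CPM (1.87 ± 0.52). The receptors *Tgfbr1* and *Tgfbr2* differed by -0.19 and 0.12 and did not pass.

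Peptidases and vasoactive peptides, the group to which *Mme* belongs, gave 2 higher and 3 lower of 16 (median -0.47), but 4 higher and 1 lower with library size alone, and 0 higher and 1 lower against SMCs of the same UMI totals. The bradykinin receptor *Bdkrb2* had 7 and 5 UMIs, or 23.7 and 23.2 CPM, against 3.97 and 4.64 CPM (2.25 ± 0.54), the endothelin receptor *Ednra* was at 84.7 and 55.6 against 28.7 and 25.5 CPM (1.20 ± 0.28), the natriuretic peptide receptor *Npr1* at 47.4 and 51.0 against 93.1 and 106 CPM (-1.23 ± 0.24), and *Ace*, angiotensin-converting enzyme (not called under DESeq2, adjusted p 0.068), at 30.5 and 32.4 against 57.8 and 58.2 CPM (-1.10 ± 0.29). Of these 4 only *Npr1* passed against SMCs of the same UMI totals (adjusted p 0.041, and 0.20, 0.62 and 0.50 for *Bdkrb2*, *Ednra* and *Ace*), and *Ednra* was at -0.041 on the log2 scale after thinning. In the actin-severing list of *Scin*, *Gsn* was higher and *Tmsb4x* (-1.37 ± 0.16) and *Cfl2* (-0.67 ± 0.16) were lower, of 9 tested.

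Axon guidance and neural adhesion genes, a list chosen because neuritin acts on neurites, gave 1 higher (*Sema3c*, 0.65 ± 0.16) and 1 lower of 18, 4 and 1 with library size alone, and 3 and 2 with the aorta as a block. *Sema3c* lost its call against SMCs of the same UMI totals (adjusted p 0.31) and was at -0.065 after thinning to 2000 UMIs. The lower one, *Slit3*, a secreted guidance ligand, was at 13.6 and 13.9 CPM against 63.1 and 74.8 CPM (-2.53 ± 0.38). Of 19 immediate early and heat shock genes, which respond to tissue dissociation, 4 were lower and none was higher (*Hsph1*, *Klf2*, *Klf6* and *Hspa8*), and 1 was higher and 11 were lower with the aorta as a block. None of 10 p53 target genes and none of 3 cell cycle genes was called by edgeR, DESeq2 or the fit with the block. At an unadjusted p under 0.05, 4 of the p53 target genes were lower and no cell cycle gene differed. *Cdkn1a* differed by -0.03 and *Pcna* by -0.27.

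Further genes completed the 14 most increased among those with at least 20 UMIs in the members of each aorta. *Bche*, which encodes butyrylcholinesterase, was at 125 and 297 CPM against 15.3 and 16.5 CPM (3.45 ± 0.29), *Gas1*, a hedgehog co-receptor, at 390 and 917 against 65.0 and 70.0 CPM (3.02 ± 0.24), and *Tshz2*, a zinc finger factor, at 366 and 394 against 55.3 and 55.0 CPM (2.57 ± 0.14). *Igfbp5*, an IGF binding protein, was at 596 and 1112 against 104 and 79.0 CPM (2.98 ± 0.22), but 1 cell held 49.4% of its UMIs in aorta 1, and endothelial cells held it at 517 and 1290 CPM. *Sh3kbp1*, an endocytic adaptor, was higher by 2.78 ± 0.20. *Bche*, *Kcnk3*, *Rspo3*, *Tfap2b* and *Grem1* were at no more than 11.1 CPM in fibroblasts, and *Igfbp5*, *Dpt* and *Scara5* were higher in fibroblasts than in members.

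Among the 10 most decreased with at least 20 UMIs in the other SMCs of each aorta, all but *Wnt16* had no UMI in members. Beside *Hand2* these were *Tesc*, *Ppef1*, *Tafa1*, *Bmp3*, *Galnt6*, *Dock10*, *Cobl* and *Fbxo40*, at between 11 and 32 CPM in the other SMCs. Set against the floor of 3 UMIs, *Tesc*, a calcium-binding protein, was at least 1.99-fold lower, *Ppef1*, a calcium-binding phosphatase, at least 1.80-fold and *Bmp3* at least 1.33-fold lower, while for *Fbxo40* the floor allows no fold. *Fbxo40* and *Tafa1* did not pass with library size alone (adjusted p 0.055 and 0.052), nor *Fbxo40* under DESeq2 (0.065). After thinning to 2000 UMIs, *Tesc*, *Ppef1*, *Tafa1*, *Bmp3*, *Galnt6* and *Dock10* lost their call, as *Hand2* did. *Tafa1* also lost it among cells of 5000 to 25000 UMIs. At the depth of 77 cells these bounds are loose.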

How the data were processed

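Single-cell libraries from 2 aortas of 1 group were analyzed. According to the file headers the authors counted UMIs per gene and cell with Cell Ranger 4.0.0, and the labels name mm10 and Seurat 4.0; the deposited whole-number counts (32287 features, 47009780 and 30919996 UMIs over 8947 and 6263 cells) were used as deposited. Gate, rule and cell filters were as stated in the text. Scrublet, run in scanpy 1.11.5, marked doublets, which were kept in the main comparison. Symbols with more than 1 identifier (38) were kept apart by identifier. Positions are those of GENCODE vM21 on GRCm38, the build of mm10.

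UMIs of members and of other SMCs were summed per aorta and tested with edgeR 4.0.16 (R 4.3.3; filterByExpr, TMM, glmQLFit, glmQLFTest), with Benjamini-Hochberg adjustment over all genes tested. Both sums of an aorta come from 1 animal, which pairs them (correlation of their deviations over 1838 genes, 0.113); the fit with the aorta as a block was an alternative, as were DESeq2 1.42.0 and the others given below. The fit was tested on simulated data without pairing by aorta or selection of cells, which therefore do not vouch for its calls here. Fold changes of single aortas add 0.5 UMIs. The genes named were the 14 highest and 10 lowest called genes with at least 20 UMIs in the higher group of each aorta and the same direction in both, without gene models, ribosomal and mitochondrial genes, up to 4 called genes of each list with the largest change, or the 2 most abundant where none was called; others named in passing were chosen after their values were seen. Members, rule and gene lists were chosen with earlier results of these data known. No p-value was computed over cells. The 2 aortas are separate animals of 1 condition, so the tests measure only the spread between these 2. Some genes of the lists are not reported here by name.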

Additional observations from a re-analysis of the deposited data

How the results depend on the processing

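The share of members, 3.13% on average, was 1.55% with at least 3 of 6 genes, 1.56% after thinning to 2000 UMIs, 3.42% without the *Pdgfra* condition and 4.06% with a mitochondrial share under 5%. With 1 gene left out of the rule it was 2.38% (*Nrn1*), 2.59% (*Mme*), 2.75% (*Angptl1*), 2.70% (*Mab21l2*), 2.50% (*Scin*) and 2.73% (*Bcl11a*). The numbers of genes higher and lower, 316 and 425, were 507 and 255 with library size alone, 149 and 181 with a mitochondrial share under 5%, 162 and 213 against other SMCs of the same UMI totals, where 6316 genes could be tested, and 81 genes were higher after thinning; under the other settings, the replicate block included (369 and 518), they stayed within 1.5 times. Of the named genes, *Ednra* and *Sema3c* changed direction after thinning, to -0.041 and -0.065. Over 96 named genes and 642 tested comparisons with an alternative, 67 lost a call and 8 gained one; of the values without a test, from 1 aorta or without the top member cell, 87 moved beyond the spread between aortas. Left out in turn, the aortas gave a share of 2.98% and 3.29%; with 1 aorta left no gene can be tested. *Lum* was higher by 6.18 without aorta 1 and by 2.85 without aorta 2, and *Grem1* by 5.98 and 3.49. Of these 96 genes, the replicate block changed the call of 4, *Cd74*, *Lyz2* and 2 hemoglobin genes; of other genes mentioned it added *Actg2*, *Acan*, *Hoxb7* and, used by the gate, *Myh11*. Leaving out the member cell with most UMIs, and library size alone for single genes, were chosen after seeing the data. The cause of these changes was not tested. Depth limits the genes that were lower in members, where a gene with no UMI could be at up to 10.2 and 13.9 CPM.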
